A study of Ovis aries with 36 samples.

Results

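Sheep ruminal epithelial cells grown with the volatile fatty acids (VFAs) of a grain-fed or a hay-fed rumen were compared at the harvest labelled T16, at 40 h. The comparison used 6 of the 36 libraries of the series, 3 from Grain medium and 3 from Hay medium, chosen by their labels and not by any measured value. Acetate stood at 71.1 mM in Grain medium and 60.8 mM in Hay medium, propionate at 20.1 and 14.6 mM, and butyrate at 16.0 and 9.2 mM. Of the minor acids, isobutyrate was at 1.1 mM in Grain and 1.0 mM in Hay, valerate at 1.7 and 1.2 mM and isovalerate at 5.3 and 3.0 mM, and the labels put all VFAs together at 115.78 and 89.79 mM. Both media had a pH of 7.2, and all cells of both groups had first spent 2 h with 100 nM dexamethasone, a glucocorticoid that brings the clocks of cultured cells into step. The other 5 harvests of the series, T0, T4, T8, T12 and T20, were taken at 24, 28, 32, 36 and 44 h with 3 libraries in each medium, and they serve here to show what set T16 apart. By its title the study asked how VFA concentration affects circadian gene expression. A culture free of VFAs was not analysed here, and acetate, propionate and butyrate were added as sodium salts, so acid and sodium cannot be told apart. Nothing in the labels ties the 3 libraries in each group to separate cultures or donor animals, and p-values therefore measure only the spread between libraries, which may be technical.

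Ruminal epithelium absorbs the VFAs that rumen microbes release and burns part of them, butyrate above all. Butyrate and propionate also inhibit histone deacetylases, enzymes that remove acetyl groups from histones, and so change the transcription of many genes. The circadian clock is a feedback loop in which CLOCK and BMAL1 switch on the PER and CRY genes, whose products then repress them, and glucocorticoids reset it through the glucocorticoid receptor. The unfolded protein response raises chaperones of the endoplasmic reticulum (ER), and the integrated stress response acts through the transcription factor ATF4.

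The 6 T16 libraries held from 57700308 to 61535862 counts, and 22488 of the 35223 listed genes had enough counts to be tested. Across genes, T16 libraries of one medium correlated at 0.982 to 0.983 on the log scale. Hay replicate 3 differed more from its group than the others did, with a chi-square per degree of freedom of 25.7 and 19.1 against Hay replicates 1 and 2, which stood at 6.05 from each other. Levels are given in CPM, counts relative to library size scaled by TMM (an edgeR normalisation), in the order of replicates 1, 2 and 3. Differences are log2 of Grain over Hay ± SE from edgeR's quasi-likelihood test, two-sided, with p-values adjusted by Benjamini-Hochberg over all tested genes and a threshold of 0.05. In bulk RNA, more cells of a type and more RNA per cell cannot be told apart.

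Marker genes of several cell types were present, and the fibroblast and mesenchymal list had by far the highest summed level in both media. Most of that sum was FN1. Which cells made up the cultures was not tested. FN1, fibronectin, stood at 81126, 83989 and 83280.0 CPM in Grain and 64082, 64877 and 58284 CPM in Hay, and VIM, the intermediate filament vimentin of mesenchymal cells, at 14081, 13975 and 13990.0 CPM in Grain and 6293, 6178 and 6800.2 CPM in Hay. KRT14, a keratin of basal keratinocytes, had 217, 215 and 249.9 CPM in Grain and 119.9, 122 and 119 CPM in Hay, and EPCAM, an epithelial adhesion molecule, had 27.9, 29.5 and 26.1 CPM in Grain and 23.02, 24.7 and 23.6 CPM in Hay. FN1, VIM, KRT14 and EPCAM were higher in every Grain library. Other members of their lists differed, with 3 of 13 tested simple epithelial markers higher in Grain and 7 lower. Of 14 basal keratinocyte markers, 7 were higher and 3 lower. LORICRIN, a protein of the cornified envelope, was detected in every library, whereas KRT1 and KRT4, keratins of differentiated layers, had no count in any T16 library, nor had the B cell gene MS4A1. Summed over their lists, the 20 fibroblast and mesenchymal markers ranged from 112000 to 115154 CPM in Grain and from 83262 to 89560 in Hay, and the 14 basal keratinocyte markers from 2491 to 2663 and from 1647 to 1851. Smooth muscle and myofibroblast markers ranged from 1833 to 1959 in Grain and 1930 to 1993 in Hay, differentiated keratinocyte markers from 129 to 143 and 148 to 154, simple epithelial markers from 211 to 233 and 305 to 320, endothelial markers from 37.8 to 39.4 and 31.6 to 34.5, and immune markers from 4.85 to 5.50 and 7.51 to 9.17. The part of these marker levels in the differences between the media was not tested.

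At T16 the media differed at most of the transcriptome. Of the tested genes, 6798 (30.2%) were higher in Grain and 7310 (32.5%) lower, and 14829 (65.9%) had all 3 Grain libraries on one side of all 3 Hay libraries. Large differences leaned downward: 1320 genes (5.87%) were at least 2-fold higher in Grain and 3111 (13.8%) at least 2-fold lower. The median difference over all tested genes was -0.067, the value against which the medians of gene lists are to be read. Counts in gene lists are likewise to be read beside the shares of 30.2% higher and 32.5% lower. Tested against a minimum fold of 1.5 in place of no difference, 2171 genes were higher and 3186 lower.

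**Figure D1:**
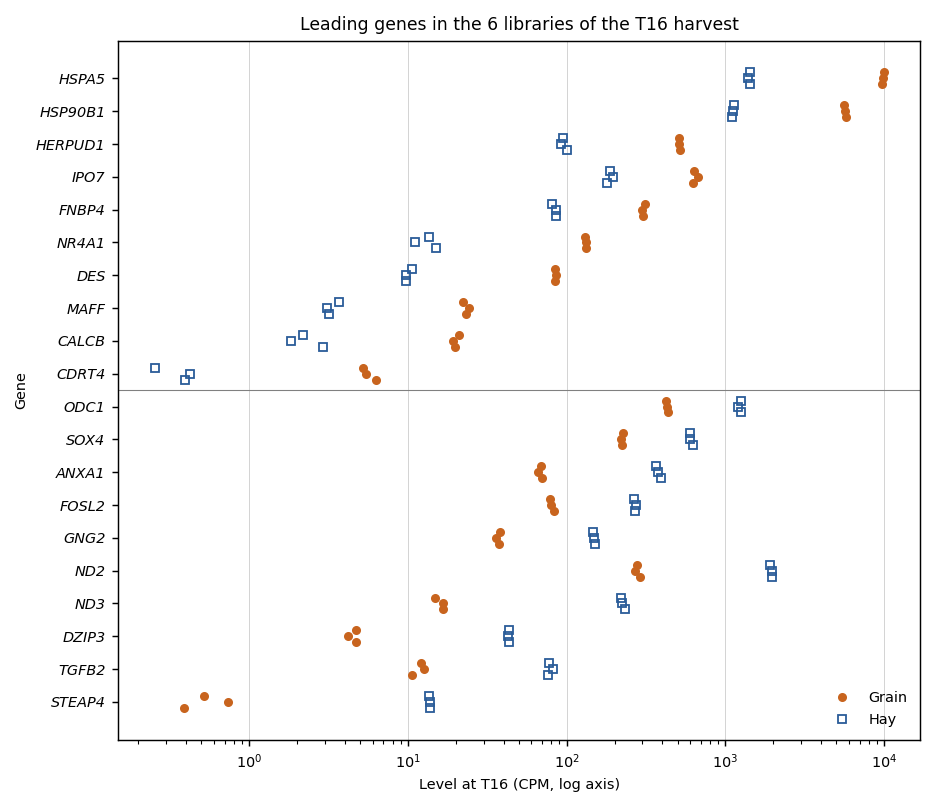
CPM of 20 genes in each of the 6 T16 libraries on a log axis, with Grain libraries as filled circles and Hay libraries as open squares. The upper 10 genes are named by the largest rises or smallest p-values among genes with all 3 Grain libraries above all 3 Hay libraries. The lower 10 were chosen likewise among genes with the opposite order, so the separation was a condition of the choice.

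Chaperones of the ER gave some of the most precise differences. HSPA5, the main ER chaperone (BiP), had 9949, 9849.9 and 9674 CPM in Grain and 1424, 1391 and 1421 CPM in Hay. The ranges lay far apart, with a 6.96-fold difference (2.80 ± 0.038, adjusted p = 7.07e-35), the smallest p-value at this harvest. HSP90B1, the ER form of HSP90, had 5596, 5641 and 5751 CPM in Grain and 1127, 1120.1 and 1105 CPM in Hay (2.34 ± 0.037, adjusted p = 3.01e-33). HERPUD1, which helps to clear misfolded proteins from the ER, had 507, 507 and 520.3 CPM in Grain and 94.9, 91.96 and 101 CPM in Hay (2.41 ± 0.038, adjusted p = 3.01e-33). In each gene all Grain libraries lay above all Hay libraries, a condition of the rule that named them.

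The list of 20 ER chaperones and disulfide isomerases had 16 members higher in Grain and 2 lower, with a median difference of 0.41. EIF2AK3, the sensor PERK, had 251, 265 and 249 CPM in Grain and 115, 115 and 109 CPM in Hay (1.17 ± 0.033, adjusted p = 1.5e-26). Of 19 tested sensors and degradation factors of the unfolded protein response, 14 were higher and 2 lower, with a median of 0.19. ERN1, the sensor IRE1 alpha, had 45.1, 51.8 and 47.2 CPM in Grain and 34.04, 36.8 and 35.5 CPM in Hay, a small difference with no overlap (0.44 ± 0.047, adjusted p = 2.95e-10). Not every member followed: DNAJC10, an ER reductase, had 291, 299.6 and 277 CPM in Grain and 408, 413 and 399 CPM in Hay and was lower in all 3 Grain libraries (-0.49 ± 0.03, adjusted p = 1.03e-16).

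Genes of the integrated stress response moved mostly the same way, with 22 of 30 higher in Grain and 5 lower (median 0.48). ATF4 mRNA had 352, 361 and 363 CPM in Grain and 191, 187 and 189 CPM in Hay (0.92 ± 0.03, adjusted p = 5.96e-25). ATF3, a stress-induced repressor and a target of ATF4, had 219, 219 and 216 CPM in Grain and 66.8, 67.99 and 72.7 CPM in Hay (1.65 ± 0.037, adjusted p = 2.82e-29). VEGFA, the vascular growth factor, had 347, 362 and 381 CPM in Grain and 108, 100.4 and 105 CPM in Hay (1.80 ± 0.044, adjusted p = 3.65e-28). All 3 genes had separate groups. SLC38A2, a neutral amino acid transporter and another target of ATF4, went the other way with 922, 970.3 and 867 CPM in Grain and 1062, 1050.3 and 1022 CPM in Hay (-0.18 ± 0.035, adjusted p = 2.48e-05).

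DDIT3, the pro-apoptotic factor CHOP, showed the largest fitted rise among the named genes, but its Hay level was unsteady. It had 114, 111 and 126 CPM in Grain and 0.779, 9.67 and 0.821 CPM in Hay. Hay replicate 2 held 594 counts where replicates 1 and 3 held 46 and 50, and the overlapping gene LOC541600 held 400 counts in replicate 2 and 908 and 916 in the other two. The groups still lay apart, as the naming rule required, at a difference of 4.94 ± 0.65, adjusted p = 4.93e-09. The size of the fold rests on how reads were shared between the 2 genes, which was not tested.

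Immediate early genes, which respond within minutes to growth factors and stress, were also mostly higher in Grain, 19 of 30, with 8 lower and a median of 0.60. NR4A1, an orphan nuclear receptor, had 129.7, 132 and 133 CPM in Grain and 13.5, 11.1 and 14.9 CPM in Hay, a 9.98-fold difference (3.32 ± 0.076, adjusted p = 5.07e-29). MAFF, a small MAF protein, had 22.3, 24.4 and 23.3 CPM in Grain and 3.68, 3.09 and 3.17 CPM in Hay (2.82 ± 0.12, adjusted p = 2.93e-21). EGR1, a zinc finger factor, had 18.1, 17.8 and 20.1 CPM in Grain and 4.49, 4.30 and 4.41 CPM in Hay (2.08 ± 0.075, adjusted p = 1.42e-23). Every Grain library exceeded every Hay library in these genes, which the naming rule required of NR4A1 and MAFF. FOSL2, an AP-1 subunit, had the opposite order with 78.4, 79.9 and 82.9 CPM in Grain and 265, 274 and 268 CPM in Hay (-1.74 ± 0.03, adjusted p = 6.83e-33).

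Cytosolic chaperones split. HSPA8, the constitutive HSP70, had 2029, 2112 and 2014 CPM in Grain and 543, 504 and 528 CPM in Hay (1.97 ± 0.038, adjusted p = 4.58e-31), and HSP90AB1, the constitutive HSP90, had 1473, 1504 and 1553 CPM in Grain and 368, 367 and 353 CPM in Hay (2.06 ± 0.037, adjusted p = 8.38e-32). HSPA1A, the inducible HSP70, had 145, 143 and 153 CPM in Grain and 247, 247 and 258 CPM in Hay and was lower in Grain (-0.77 ± 0.041, adjusted p = 1.28e-18). Over the list, 6 of 19 members were higher and 11 lower, with a median of -0.33.

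Other genes with large rises were low in Hay. DES, the muscle filament desmin, had 83.9, 86.2 and 83.9 CPM in Grain and 10.6, 9.75 and 9.80 CPM in Hay (8.44-fold). CALCB, a calcitonin gene-related peptide, had 20.9, 19.2 and 19.8 CPM in Grain and 2.19, 1.82 and 2.90 CPM in Hay (8.66-fold), and PRG4, the joint lubricant lubricin, had 15.8, 16.5 and 15.97 CPM in Grain and 1.80, 1.25 and 2.07 CPM in Hay (9.43-fold). CDRT4 had 5.18, 5.48 and 6.30 CPM in Grain and 0.254, 0.423 and 0.394 CPM in Hay (15.7-fold), TONSL, a factor that protects stalled replication forks, had 5.38, 4.96 and 6.03 CPM in Grain and 0.712, 0.749 and 0.558 CPM in Hay (8.09-fold), and PRR7 had 4.17, 5.29 and 6.02 CPM in Grain and 0.762, 1.16 and 0.476 CPM in Hay (6.45-fold). Adjusted p-values of the 6 genes lay at or below 5.58e-14. No library of one medium reached the range of the other in any of them, as the naming rule required. Among abundant genes with small spread, IPO7, a nuclear import receptor, had 634, 669.9 and 625 CPM in Grain and 189, 195 and 179.6 CPM in Hay (1.78 ± 0.031, adjusted p = 2.23e-32), and FNBP4, a formin-binding protein, had 313, 297 and 304 CPM in Grain and 80.5, 85.5 and 86.1 CPM in Hay (1.86 ± 0.031, adjusted p = 3.65e-33).

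Genes strongly lower in Grain covered several functions. RAD21L1, a cohesin subunit known from meiosis, had 0.324, 0.288 and 0.335 CPM in Grain and 16.98, 14.9 and 14.3 CPM in Hay, a 48.4-fold difference (-5.60 ± 0.31, adjusted p = 1.02e-21). STEAP4, a metalloreductase, had 0.521, 0.737 and 0.388 CPM in Grain and 13.6, 13.8 and 13.8 CPM in Hay (-4.64 ± 0.19, adjusted p = 6.69e-24). DZIP3, a ubiquitin ligase, had 4.69, 4.21 and 4.73 CPM in Grain and 43.1, 42.5 and 43.5 CPM in Hay (-3.24 ± 0.083, adjusted p = 3.62e-28), and CCDC89 had 1.31, 1.85 and 2.12 CPM in Grain and 16.2, 17.1 and 16.9 CPM in Hay (-3.25 ± 0.12, adjusted p = 6.24e-23). NEFL, the light neurofilament, had 2.03, 1.37 and 1.62 CPM in Grain and 13.1, 12.4 and 13.96 CPM in Hay, and LRP2BP had 0.809, 0.755 and 0.812 CPM in Grain and 5.25, 5.83 and 4.86 CPM in Hay. All of these had every Grain library below every Hay library, which the naming rule required of them.

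TGFB2, the second transforming growth factor beta, had 12.1, 12.6 and 10.6 CPM in Grain and 76.8, 82.03 and 75.9 CPM in Hay (-2.73 ± 0.063, adjusted p = 4.41e-29), whereas TGFB1 had the opposite order with 326, 330.2 and 356 CPM in Grain and 161, 162 and 179 CPM in Hay (1.01 ± 0.039, adjusted p = 1.42e-22). ODC1, the first enzyme of polyamine synthesis, had 421, 429 and 432 CPM in Grain and 1257, 1205 and 1255 CPM in Hay, a moderate but tight difference (-1.54 ± 0.025, adjusted p = 3.01e-33). ANXA1, a phospholipid-binding protein induced by glucocorticoids, had 69.03, 65.7 and 69.8 CPM in Grain and 364, 373 and 391 CPM in Hay (-2.46 ± 0.04, adjusted p = 3.01e-33). GNG2, a G protein gamma subunit, had 37.8, 35.98 and 37.3 CPM in Grain and 147, 149 and 150.5 CPM in Hay, and SOX4, a transcription factor, had 227, 219 and 224 CPM in Grain and 602, 599 and 626 CPM in Hay. These pairs of groups did not overlap, which the naming rule required of all of them but TGFB1. C2H2orf88 had no count in any Grain T16 library and 346 to 404 counts in Hay, which makes it at least 118-fold lower at a floor of 3 counts per library. Its counts also switched inside other groups, for example from 0 to 458 in Hay T0, and it overlaps PMS1, so this difference is uncertain.

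Mitochondrially encoded mRNAs were lower in Grain, all 13 of 13, with a median of -1.76. ND3, a subunit of respiratory complex I, had 14.7, 16.7 and 16.6 CPM in Grain and 219, 222 and 233 CPM in Hay, a 14-fold difference (-3.81 ± 0.074, adjusted p = 4.36e-31), and ND2, another, had 275, 268 and 289 CPM in Grain and 1914, 1968 and 1955 CPM in Hay (-2.81 ± 0.083, adjusted p = 2.75e-25). Together these 13 mRNAs took 1.18% ± 0.015 of the counts in Grain and 3.28% ± 0.046 in Hay (SD, n = 3 each), with no overlap. The difference of -2.10 percentage points had an exact permutation p of 0.1, two-sided, the smallest that 3 against 3 libraries allow. Nuclear genes of oxidative phosphorylation shifted less, 4 of 20 higher and 13 lower (median -0.22). SDHA, the flavoprotein of succinate dehydrogenase, had 72.02, 68.1 and 71.9 CPM in Grain and 119, 122 and 125 CPM in Hay (-0.78 ± 0.045, adjusted p = 1.36e-17).

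Most genes of cell division were higher in Grain. Of 39 tested genes of mitosis, 38 were higher and 0 lower, with a median of 1.30, and of 43 genes of DNA replication 36 were higher and 3 lower (median 0.75). TOP2A, the topoisomerase of dividing cells, had 84.4, 84.8 and 85.6 CPM in Grain and 32.5, 32.8 and 30.6 CPM in Hay (1.41 ± 0.045, adjusted p = 4.97e-25). CENPF, a kinetochore protein, had 68.2, 63.8 and 67.01 CPM in Grain and 19.8, 20.4 and 15.5 CPM in Hay (1.84 ± 0.066, adjusted p = 1.91e-23), and MCM10, a replication initiation factor, had 85.5, 83.6 and 85.9 CPM in Grain and 22.4, 23.9 and 21.4 CPM in Hay (1.91 ± 0.046, adjusted p = 1.43e-28). Grain exceeded Hay in every library of these genes. CCNE2, a cyclin of the G1/S transition, was lower in Grain with 13.5, 13.5 and 14.7 CPM in Grain and 24.4, 24.1 and 23.2 CPM in Hay (-0.78 ± 0.074, adjusted p = 1.37e-11), and the growth-arrest gene CDKN1A (p21) was slightly lower with 49.2, 52.6 and 55.03 CPM in Grain and 57.5, 56.2 and 59.05 CPM in Hay (-0.14 ± 0.049, adjusted p = 0.0131), a call lost without Grain replicate 1 or Hay replicate 3.

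Ribosomal protein genes were higher in Grain, 50 of 51 with 0 lower, by a median of 0.46. RPL10 had 1197, 1243 and 1203 CPM in Grain and 623, 644 and 695 CPM in Hay (0.89 ± 0.035, adjusted p = 2.97e-22), and RPL28 had 302, 291 and 318 CPM in Grain and 175, 181 and 206 CPM in Hay (0.70 ± 0.044, adjusted p = 2.36e-16). Of 30 ribosome biogenesis genes, 23 were higher and 5 lower (median 0.36), with the nucleolar protein NPM1 at 661, 676 and 622 CPM in Grain and 269, 257 and 262 CPM in Hay (1.31 ± 0.039, adjusted p = 1.06e-25). Proteasome subunits had 8 higher and 13 lower of 31 (median -0.042), beside 30.2% and 32.5% of all tested genes. Reads from ribosomal protein genes can match near-identical copies, so the values of single ones are uncertain.

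Glycolytic genes did not share a direction, with 10 of 21 higher and 7 lower (median 0.076). HK2, hexokinase 2, had 133, 133 and 136 CPM in Grain and 46.8, 44.2 and 42.6 CPM in Hay (1.59 ± 0.04, adjusted p = 6.81e-28), and SLC2A3, the glucose transporter GLUT3, had 119.5, 125 and 129.8 CPM in Grain and 42.8, 44.2 and 42.6 CPM in Hay (1.53 ± 0.053, adjusted p = 7.62e-24). LDHA, lactate dehydrogenase A, had 318, 327 and 303 CPM in Grain and 397, 393 and 417 CPM in Hay (-0.35 ± 0.036, adjusted p = 1.19e-10), lower in every Grain library. The citric acid cycle and pyruvate entry gave 11 higher and 10 lower of 27, and fatty acid synthesis 7 and 6 of 14. Of 28 antioxidant genes, 9 were higher and 14 lower, and the peroxidase PRDX1 had 919, 914 and 948 CPM in Grain and 1637, 1666 and 1775 CPM in Hay (-0.87 ± 0.029, adjusted p = 1.28e-24), whereas TKT, transketolase of the pentose phosphate pathway, had 133, 127 and 146 CPM in Grain and 43.4, 47.8 and 47.95 CPM in Hay (1.54 ± 0.055, adjusted p = 1.4e-23).

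Collagen and matrix genes were mostly higher in Grain, 21 of 31 with 7 lower (median 0.41). TNC, tenascin C, had 1549, 1628 and 1651 CPM in Grain and 316, 318 and 317 CPM in Hay (2.34 ± 0.056, adjusted p = 4.46e-28), and MMP14, a membrane-bound matrix protease, had 121, 125 and 141 CPM in Grain and 23.2, 21.97 and 20.8 CPM in Hay (2.55 ± 0.06, adjusted p = 1.46e-28). COL1A1, the main chain of type I collagen, had the opposite order with 2474, 2463 and 2504 CPM in Grain and 4163, 4265 and 4137 CPM in Hay (-0.76 ± 0.038, adjusted p = 2.29e-19), as had MMP1, interstitial collagenase, with 45.96, 42.7 and 41.3 CPM in Grain and 254, 226 and 266 CPM in Hay (-2.52 ± 0.061, adjusted p = 3.2e-28). The groups lay apart in all 4 genes. The fibroblast and mesenchymal marker sum was also higher in Grain. FN1, which is in the matrix list too, made up most of that sum, and of the 20 markers 11 were higher in Grain and 5 lower.

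Growth factors and their receptors split evenly, 14 higher and 14 lower of 33. GDF15, a stress-induced cytokine, had 5.57, 5.95 and 6.39 CPM in Grain and 1.46, 1.32 and 1.49 CPM in Hay (2.07 ± 0.15, adjusted p = 2.48e-14), and EREG, the EGF receptor ligand epiregulin, had 36.04, 40.9 and 40.8 CPM in Grain and 132, 129 and 130.4 CPM in Hay (-1.73 ± 0.05, adjusted p = 4.56e-26). IGF2, insulin-like growth factor 2, had 7.97, 8.74 and 8.66 CPM in Grain and 24.4, 24.9 and 21.8 CPM in Hay (-1.49 ± 0.083, adjusted p = 6.77e-18). In these 3 genes no Grain library reached the Hay range. PLK2, a stress-induced kinase, had 446, 436 and 447 CPM in Grain and 1062, 1077 and 1074 CPM in Hay (-1.27 ± 0.025, adjusted p = 5.64e-31), and CCND1, cyclin D1, had 25.5, 27.1 and 23.8 CPM in Grain and 54.9, 52.1 and 53.6 CPM in Hay (-1.07 ± 0.048, adjusted p = 7.94e-21). Of 23 genes that respond to butyrate or to histone deacetylase inhibitors, 9 were higher and 11 lower (median -0.13). TXNIP, which binds thioredoxin and limits glucose uptake, had 538, 541 and 509.9 CPM in Grain and 1342, 1333 and 1374 CPM in Hay (-1.35 ± 0.031, adjusted p = 2.7e-29).

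**Figure D2:**
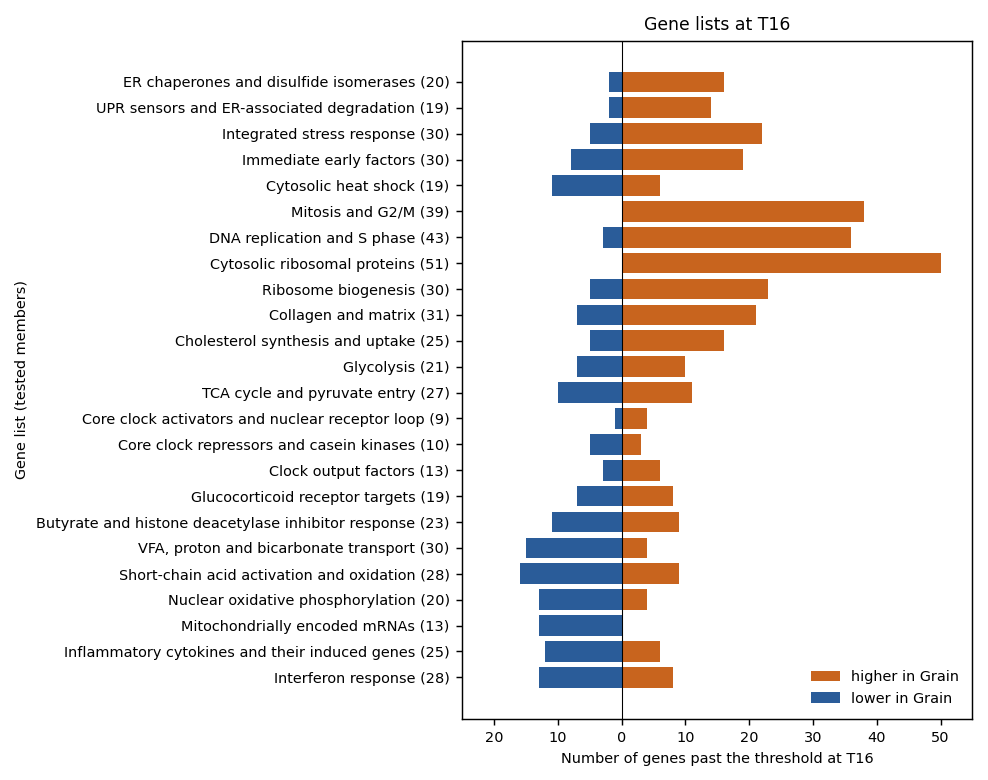
Number of members of 24 gene lists that were higher in Grain (bars to the right) and lower in Grain (bars to the left) at T16 by edgeR's test, with the number of tested members after each name. The mitosis list has 38 of 39 members to the right and the mitochondrially encoded mRNAs have all 13 to the left.

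Transport of VFAs, protons and bicarbonate leaned lower in Grain, with 4 of 30 genes higher and 15 lower (median -0.30). SLC16A1, the monocarboxylate transporter MCT1, had 88.1, 94.7 and 85.5 CPM in Grain and 114, 111 and 108 CPM in Hay (-0.31 ± 0.037, adjusted p = 3.41e-09). SLC4A7, a sodium bicarbonate cotransporter, had 178, 178 and 171 CPM in Grain and 283, 282 and 266 CPM in Hay (-0.66 ± 0.036, adjusted p = 3.81e-18), and SLC9A2, a sodium/proton exchanger, had 7.44, 7.41 and 7.71 CPM in Grain and 12.5, 11.3 and 12.4 CPM in Hay (-0.68 ± 0.083, adjusted p = 5.53e-09). In all 3 genes the groups lay apart.

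Enzymes that activate and oxidise short-chain acids were lower more often than higher, 16 against 9 of 28 (median -0.18). PCCB, a subunit of propionyl-CoA carboxylase, had 31.97, 32.04 and 32.5 CPM in Grain and 53.05, 56.4 and 55.4 CPM in Hay (-0.77 ± 0.053, adjusted p = 2.29e-15). The list of ketone body metabolism gave 2 higher and 3 lower of 9 (median -0.035). Among its lower members, OXCT1, which activates ketone bodies, had 129, 133 and 119 CPM in Grain and 215, 208 and 202 CPM in Hay (-0.71 ± 0.036, adjusted p = 3.57e-19), and BDH1, the mitochondrial 3-hydroxybutyrate dehydrogenase, had 5.93, 5.97 and 4.96 CPM in Grain and 12.7, 13.1 and 11.2 CPM in Hay (-1.13 ± 0.11, adjusted p = 1.39e-11). Cholesterol synthesis went mostly the other way, 16 of 25 higher and 5 lower (median 0.21). INSIG1, a sterol sensor of the ER, had 136, 134 and 135 CPM in Grain and 54.9, 57.8 and 59.9 CPM in Hay (1.23 ± 0.041, adjusted p = 2.42e-24), while FDPS, farnesyl diphosphate synthase, had 38.1, 38.2 and 36.9 CPM in Grain and 53.1, 52.9 and 54.5 CPM in Hay (-0.50 ± 0.061, adjusted p = 4.86e-09).

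Inflammatory genes were lower more often, 12 against 6 of 25 (median -0.34). CXCL8, the neutrophil chemokine interleukin 8, had 545, 544 and 578 CPM in Grain and 1204, 1179 and 1237 CPM in Hay (-1.12 ± 0.047, adjusted p = 2.09e-21). PTGS2, the inducible cyclooxygenase, had 723, 745 and 705 CPM in Grain and 1281, 1199 and 1302 CPM in Hay (-0.80 ± 0.052, adjusted p = 5.85e-16), and IL1A, interleukin 1 alpha, had 65.4, 62.95 and 63.02 CPM in Grain and 121, 114 and 117 CPM in Hay (-0.88 ± 0.039, adjusted p = 8.35e-21). IL11, a cytokine of the interleukin 6 family, had the opposite order with 46.4, 47.1 and 51.3 CPM in Grain and 10.7, 11.1 and 12.1 CPM in Hay (2.09 ± 0.079, adjusted p = 1.1e-22). Of 28 interferon-response genes, 8 were higher and 13 lower (median -0.19), beside 30.2% and 32.5% of all tested genes. The sum of immune markers, low in both media, was also lower in Grain.

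Clock genes did not share one direction, and the differences that passed in the core loop ran from -1.08 (PER2) to 1.11 (BMAL1). Among activators and their nuclear receptors, 4 of 9 were higher in Grain and 1 lower, and among repressors and their kinases 3 of 10 were higher and 5 lower. Over all tested genes 30.2% were higher and 32.5% lower. BMAL1, the partner of CLOCK, had 83.7, 90.7 and 86.9 CPM in Grain and 39.3, 41.5 and 39.9 CPM in Hay (1.11 ± 0.041, adjusted p = 2.54e-23), and CLOCK itself had 76.9, 81.5 and 76.04 CPM in Grain and 61.2, 61.5 and 56.8 CPM in Hay (0.39 ± 0.04, adjusted p = 1.01e-10). CRY1, a repressor, had 99.8, 98.9 and 96.9 CPM in Grain and 56.6, 66.6 and 62.2 CPM in Hay (0.67 ± 0.063, adjusted p = 9.4e-12). These groups did not overlap.

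PER1 and CRY2 were higher in Grain as well, at 0.52 ± 0.09, adjusted p = 4.35e-06 and 0.33 ± 0.089, adjusted p = 0.00135. PER2, the second period gene, had 1.10, 2.37 and 1.80 CPM in Grain and 3.57, 3.74 and 3.86 CPM in Hay (-1.08 ± 0.19, adjusted p = 4.91e-06), lower in Grain with a wide spread between its 3 Grain libraries. PER3 (-0.38), CIART (-0.34), CSNK1D (-0.17) and BTRC (-0.40) also passed the test as lower, and RORA (0.52) and BMAL2 (0.15) as higher. NPAS2, a relative of CLOCK, was lower at -0.45 with adjusted p = 0.0181 by edgeR. NR1D1, NR1D2, RORB and CSNK1E did not pass, with differences from -0.50 (RORB) to 0.47 (NR1D1). Small clock differences rested on single libraries. NPAS2 no longer passed without Grain replicate 1, Grain replicate 2 or Hay replicate 2, and PER3 without Grain replicate 2 or Hay replicate 1. CIART no longer passed without Grain replicate 1, Grain replicate 3, Hay replicate 1 or Hay replicate 3, and BMAL2 without Grain replicate 1, Grain replicate 2, Hay replicate 1 or Hay replicate 3. NR1D1 passed without Grain replicate 3.

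Of 13 clock output factors, 6 were higher in Grain and 3 lower. NFIL3, a repressor of D-box genes, had 118, 127 and 119 CPM in Grain and 66.2, 67.00 and 66.2 CPM in Hay (0.87 ± 0.038, adjusted p = 3.66e-21), and TSC22D3, the glucocorticoid-induced leucine zipper GILZ, had 89.05, 90.1 and 88.5 CPM in Grain and 49.3, 52.6 and 50.1 CPM in Hay (0.82 ± 0.051, adjusted p = 2.12e-16). NAMPT, the rate-limiting enzyme of NAD salvage, had 94.5, 98.9 and 93.2 CPM in Grain and 43.9, 44.8 and 43.3 CPM in Hay, and KLF10 had 36.97, 38.5 and 39.5 CPM in Grain and 89.4, 92.2 and 94.1 CPM in Hay, which is the largest fall of the list (-1.26 ± 0.046, adjusted p = 3.16e-23). PDK4, USP2 and WEE1 were higher at 0.57, 0.86 and 0.48, and BHLHE40 and TEF lower at -0.74 and -0.26. DBP, HLF, BHLHE41 and KLF9 did not pass, with differences from -0.15 (BHLHE41) to 0.094 (DBP). TEF no longer passed without Grain replicate 1.

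The T16 difference was then set against those of the other 5 harvests, to see what was particular to this harvest. The departure is the T16 difference minus the mean of the other 5 differences, tested in the same edgeR model. A departure above 0 means that Grain stood higher relative to Hay at T16 than on average elsewhere. It passed the threshold for 2077 genes, upward in 1038 (4.62%) and downward in 1039 (4.62%), and only 108 of them departed by 2-fold or more. With DESeq2 size factors the count was 2151, with 1329 upward and 822 downward, or 61.8% upward in place of 49.98%. Without Hay replicate 3 it was 1381. Departures counted in gene lists are to be read beside the 4.62% of all tested genes in each direction.

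Single harvests differed in how far they stood from T16. The T16 difference departed from the T12 difference in 408 genes (1.81%), from T20 in 733 (3.26%), from T0 in 1108 (4.93%), from T4 in 4136 (18.4%) and from T8 in 5555 (24.7%). When only T12 and T20, its neighbours in time, were the reference, 3 genes passed in place of 2077. The T8 values given below for single genes come from the harvest that stood farthest from T16. When T4 or T8 was left out of the reference, 1116 and 792 genes passed, and when T12 was left out, 4019. Among the 1038 upward departures the T16 difference was the highest of the 6 harvests in 464 and the T12 difference in 554, and among the 1039 downward ones T16 was lowest in 427 and T12 in 598. In 1156 of the 2077 departures (55.7%) the T16 difference lay between those of T12 and T20, as it did in 47.1% of all tested genes.

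**Figure D3:**
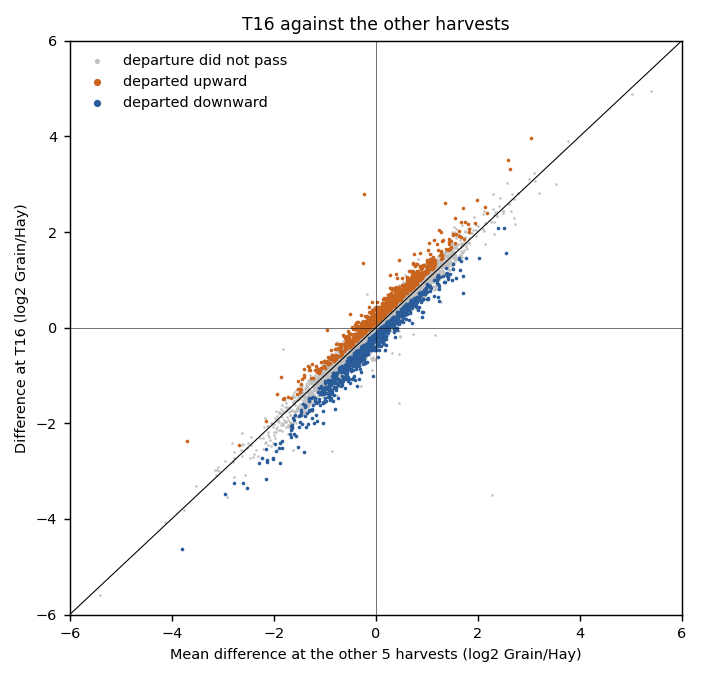
Difference between Grain and Hay at T16 (vertical axis, log2) against the mean difference at the other 5 harvests (horizontal axis, log2) for the tested genes with at least 5 CPM in a T16 group. Grey points are genes whose departure did not pass edgeR's test, orange points departed upward and blue points downward, and the diagonal marks equal differences. C2H2orf88 lies outside the axes, and the departures lie close beside the diagonal rather than far from it.

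Departures came more often with a move in Grain than in Hay. In Grain, 2457 genes (10.9%) stood higher at T16 than over the other 5 Grain harvests and 2082 (9.26%) lower, and in Hay 1769 (7.87%) stood higher and 979 (4.35%) lower. Without Hay replicate 3 the Hay count fell from 2748 to 1438. Of the upward departures, 587 came with a rise in Grain and no called change in Hay, 190 with a fall in Hay alone and 135 with both. Of the downward ones, 573 came with a fall in Grain alone, 269 with a rise in Hay alone and 58 with both.

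Among the genes with the largest upward departures, LRRC58 also had the smallest p-value. It had 206, 228 and 215 CPM in Grain and 76.7, 72.7 and 69.9 CPM in Hay, a difference of 1.57 against 0.14 at T8, 0.32 at T4 and 2.01 at T12 (departure 0.71 ± 0.056, adjusted p = 8.75e-11). NR4A1 and both its relatives departed upward. NR4A1 differed by 2.03 at T8, 3.32 at T16 and 3.48 at T12 (departure 0.68 ± 0.083, adjusted p = 5.05e-07), and NR4A2 by -0.26, 0.82 and 1.20 (0.44 ± 0.056, adjusted p = 1.16e-06). NR4A3, named after its values were seen, departed by 0.63 ± 0.11, adjusted p = 0.000201. In each of the 3 the T12 difference exceeded the T16 difference.

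Other upward departures came in genes of several functions. AMER3, an inhibitor of WNT signalling, had 1.08, 0.773 and 1.48 CPM in Grain and 5.44, 5.53 and 6.42 CPM in Hay, so that Grain was lower, but less so than at T8, where the difference was -5.24 (departure 1.32 ± 0.23, adjusted p = 0.000192). MSTN, the muscle growth inhibitor myostatin, had 5.07, 4.57 and 5.29 CPM in Grain and 5.59, 4.96 and 4.89 CPM in Hay, overlapping groups at T16, against a difference of -1.54 at T8 (0.90 ± 0.12, adjusted p = 1.45e-06). KRTAP1-1, a keratin-associated protein, had 8.56, 7.17 and 9.21 CPM in Grain and 3.49, 2.57 and 3.30 CPM in Hay (0.96 ± 0.15, adjusted p = 5.09e-05). CDRT4 departed by 0.93, TET1, which oxidises methylcytosine, by 0.83, SLC6A20, an amino acid transporter, by 0.78, and KIF20A, a mitotic kinesin, by 0.70. H1-6, a linker histone of the testis, had 118, 114 and 117 CPM in Grain and 53.3, 54.03 and 51.9 CPM in Hay (0.73 ± 0.086, adjusted p = 3.1e-07), and MEDAG had 58.4, 58.8 and 50.7 CPM in Grain and 15.8, 15.6 and 18.1 CPM in Hay (0.71 ± 0.1, adjusted p = 6.46e-06).

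The list of TXNIP, arrestin-domain and energy stress genes departed upward in 6 of 15, none downward, with a median of 0.16, but in 0 without T8 in the reference. TXNIP differed by -1.62 at T8 and -1.35 at T16 (0.13 ± 0.033, adjusted p = 0.00788), and ARRDC4, an arrestin-domain relative, by -1.41 and -0.82 (0.21 ± 0.033, adjusted p = 3.68e-05). Apoptosis regulators departed upward in 6 of 21, none downward, in 2 without T8 and in 2 without Hay replicate 3. APAF1, the platform of the apoptosome, had 29.9, 26.3 and 27.5 CPM in Grain and 20.8, 18.6 and 16.2 CPM in Hay, a difference of 0.59 against 0.15 at T8 (0.29 ± 0.074, adjusted p = 0.00944). CDKN1A went from -0.87 at T8 to -0.14 at T16 (0.36 ± 0.054, adjusted p = 1.42e-05), and BTG2, an antiproliferative gene, from 0.23 to 1.06 (0.36 ± 0.052, adjusted p = 8.94e-06).

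HDAC9, a class IIa histone deacetylase, had the largest upward departure among the named genes, 1.59 ± 0.41, adjusted p = 0.00913, but its reads were unsteady. It had 5.43, 6.71 and 6.77 CPM in Grain and 2.93, 2.42 and 2.08 CPM in Hay, and Hay T16 held 127 to 173 counts where Hay T0 held 371 to 448 and Hay T8 201 to 505. Grain libraries also varied within a group, for example from 125 to 383 counts at T20. HDAC9 overlaps LOC114114657 and LOC114114660, and how reads were shared between them was not tested.

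VCAN, the proteoglycan versican, had 772, 861 and 828 CPM in Grain and 593, 597 and 516 CPM in Hay at T16, a difference of 0.53 where T8 had -0.77 and T4 -0.56 (departure 0.59 ± 0.052, adjusted p = 7.23e-10). HNRNPA1, a splicing regulator, differed by 0.64 at T16 and by -0.17 at T8 (0.38 ± 0.033, adjusted p = 7.23e-10). HNRNPL, another, departed the opposite way, from -0.48 at T8 to -1.40 at T16 (-0.47 ± 0.039, adjusted p = 1.21e-10). INHBA, the beta A subunit of activin, had overlapping groups at T16 with 741, 776 and 783 CPM in Grain and 820.4, 819.5 and 775 CPM in Hay, against a difference of -1.19 at T8 (0.48 ± 0.049, adjusted p = 1.64e-08). Its departure changed sign with only T12 and T20 as the reference.

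Glucocorticoid receptor targets departed mostly upward, 7 of 19 with 1 downward, and a median departure of 0.15 beside -0.018 over all tested genes. Without T8 in the reference the upward count was 5. GLUL, glutamine synthetase, had 370.5, 385 and 398 CPM in Grain and 408, 415 and 417 CPM in Hay, a difference of -0.11 at T16 where T8 had -1.02 and T12 0.12 (departure 0.43 ± 0.038, adjusted p = 7.23e-10). SGK1, a kinase that controls sodium transport, had 246, 234 and 252 CPM in Grain and 515, 507 and 520.3 CPM in Hay and differed by -1.08 against -1.99 at T8 (0.37 ± 0.036, adjusted p = 7.04e-09). The SGK1 departure changed sign with only T12 and T20 as the reference. TSC22D3 departed by 0.44 ± 0.056, adjusted p = 1.14e-06 and KLF9 by 0.34 ± 0.052, adjusted p = 1.75e-05. CEBPD, a C/EBP factor, went the other way with 14.6, 14.5 and 14.3 CPM in Grain and 49.7, 47.7 and 56.6 CPM in Hay, -1.83 at T16 against -0.44 at T8 (-0.65 ± 0.082, adjusted p = 9.08e-07).

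Several inflammatory genes that were lower in Grain were closer to equal at T16 than at T8. Of the list of 25, 6 departed upward and 2 downward, with a median of 0.047. PTGS2 differed by -2.10 at T8, -0.35 at T12, -0.80 at T16 and -1.37 at T20 (0.52 ± 0.057, adjusted p = 6.84e-08). CCL20, a chemokine, had 29.9, 27.7 and 29.7 CPM in Grain and 60.9, 52.2 and 65.8 CPM in Hay, at -1.04 the smallest of its 6 differences (0.82 ± 0.12, adjusted p = 1.6e-05). IL1A departed by 0.40 ± 0.043, adjusted p = 2.82e-08 and CXCL8 by 0.40 ± 0.052, adjusted p = 1.59e-06. ICAM1, an adhesion molecule, departed downward at -0.38 ± 0.066, adjusted p = 0.00011, from -0.50 at T8 to -1.15 at T16.

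Of the cytosolic chaperones, 4 of 19 departed upward and 0 downward, and 2 upward without T8 in the reference. HSPA1A differed by -1.88 at T8 and -0.77 at T16 (0.48 ± 0.044, adjusted p = 1.9e-09), and HSPA8 by 1.05 and 1.97 (0.40 ± 0.042, adjusted p = 2.56e-08). The ER chaperones gave 1 upward and 2 downward departures of 20, and 3 upward and 1 downward with DESeq2 size factors. HSPA5 differed by 2.44 at T8, 2.96 at T0 and 2.80 at T16, and its departure of 0.12 did not pass (adjusted p = 0.0528 by edgeR). The 13 mitochondrially encoded mRNAs gave no called departure.

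Contractile genes were among the downward departures with the smallest p-values. ACTG2, the actin of enteric smooth muscle, had 96.9, 99.5 and 96.9 CPM in Grain and 59.4, 57.8 and 60.4 CPM in Hay at T16, where Grain was higher in every library, at 0.72. At T8 the difference was 2.62, at T12 0.42 and at T20 1.20 (departure -0.99 ± 0.07, adjusted p = 8e-12). The departure came with a move in Hay, where ACTG2 rose by 1.48 at T16 over the other Hay harvests, against 0.49 in Grain. Its mean level in Hay was 6.86 ± 0.415 CPM at T8, 95.4 ± 0.318 at T12 and 59.2 ± 1.30 at T16 (SD, n = 3), and in Grain 42.2 ± 3.13, 127 ± 3.53 and 97.8 ± 1.48.

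TAGLN, the actin-binding protein transgelin, had 352, 372 and 389 CPM in Grain and 290.1, 320.3 and 337 CPM in Hay, higher in every Grain library but by only 0.23, where T8 had 1.68 (-0.67 ± 0.055, adjusted p = 1.21e-10). TPM2, beta-tropomyosin, had 413, 427 and 457 CPM in Grain and 197, 201 and 215 CPM in Hay and differed by 1.08 against 2.26 at T8 (-0.62 ± 0.062, adjusted p = 8.96e-09). ACTA2, smooth muscle alpha actin, had 175, 178 and 186 CPM in Grain and 333, 331 and 345 CPM in Hay (-0.26 ± 0.049, adjusted p = 0.000408). Of the 12 smooth muscle and myofibroblast markers 4 departed downward and 1 upward, and without T8 in the reference the downward count was 4. The upward one was CALD1, caldesmon (0.14 ± 0.041, adjusted p = 0.0188). DES, which was 8.44-fold higher in Grain, did not depart (-0.051, adjusted p = 0.825 by edgeR). Summed over the list, these markers averaged 926 CPM in Hay at T8, 2429 at T12 and 1961 at T16, and 1049, 2350 and 1894 in Grain.

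**Figure D4:**
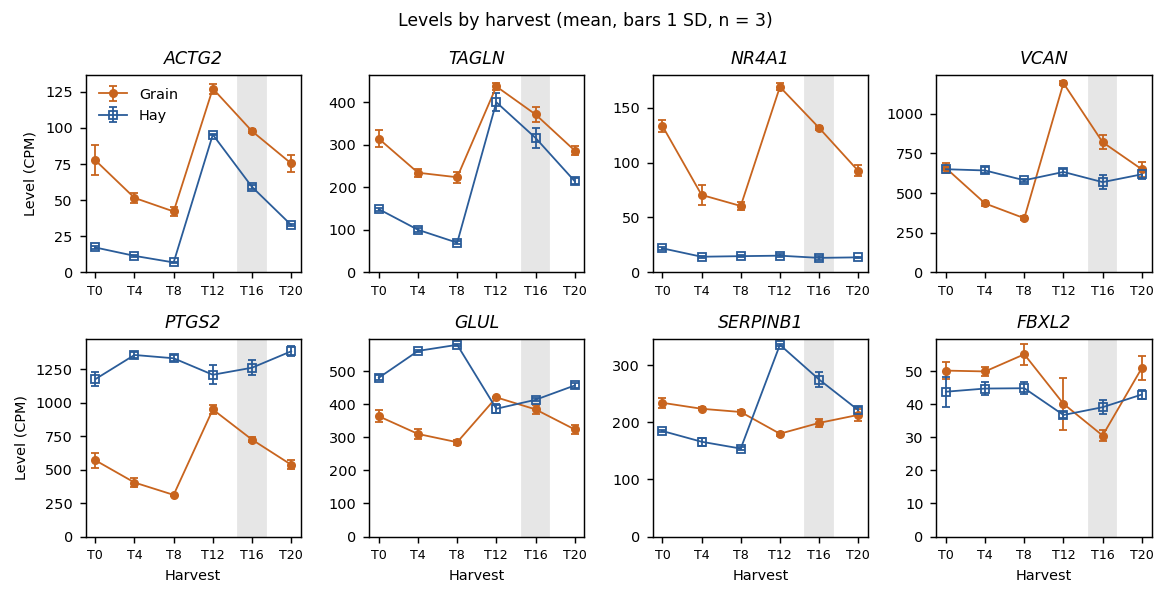
Mean CPM by harvest in Grain (filled circles) and Hay (open squares) for 8 genes, with bars of 1 SD over 3 libraries and T16 shaded. ACTG2 and TAGLN rise in Hay from T8 to T12 and are lower again at T16, and FBXL2 has its lowest mean Grain level at T16, with its widest spread at T12.

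Basal keratinocyte markers departed upward in 5 of 14, with none downward, a count that was 2 without Hay replicate 3 and 0 without T8 in the reference. KRT5, a keratin of the basal layer, had 104, 105 and 113 CPM in Grain and 83.1, 81.8 and 73.9 CPM in Hay, higher in Grain at T16 (0.43) and lower at T8 (-0.82) (0.43 ± 0.073, adjusted p = 9.03e-05). KRT15 had 16.3, 19.5 and 22.2 CPM in Grain and 16.1, 16.1 and 16.9 CPM in Hay, overlapping groups (0.45 ± 0.1, adjusted p = 0.00349), and KRT14 departed by 0.22 ± 0.06, adjusted p = 0.0153. The sum of these markers ranged from 2491 to 2663 CPM in Grain at T16 and averaged 1748 in Grain at T8.

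Further downward departures came in signalling genes. DUSP2, a phosphatase that inactivates MAP kinases, had 6.89, 5.65 and 6.25 CPM in Grain and 1.83, 1.86 and 2.71 CPM in Hay, a difference of 1.55 at T16 against 3.37 at T8 (-0.999 ± 0.19, adjusted p = 0.000347). DUSP6, which acts on ERK, had overlapping groups with 61.01, 65.9 and 56.7 CPM in Grain and 61.4, 64.2 and 63.95 CPM in Hay, where T8 had 0.88 (-0.47 ± 0.062, adjusted p = 2.19e-06). The DUSP6 departure changed sign with only T12 and T20 as the reference. EGR1 and KLF2, both immediate early factors, departed by -0.44 ± 0.082, adjusted p = 0.000351 and -0.57 ± 0.098, adjusted p = 0.000137. Over the list of 30 immediate early factors, 8 departed upward and 4 downward, and 4 each way without T8 in the reference. TGFB1 departed by -0.41 ± 0.043, adjusted p = 1.94e-08 and MMP1 by -0.68 ± 0.066, adjusted p = 7e-09. ID1, a helix-loop-helix inhibitor, had 9.73, 9.21 and 10.5 CPM in Grain and 41.5, 38.5 and 44.2 CPM in Hay (-0.58 ± 0.1, adjusted p = 0.000115).

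Genes of secretion, transport and metabolism were among the 12 largest downward departures. ATP12A, the non-gastric proton/potassium pump, had 6.38, 6.35 and 6.19 CPM in Grain and 13.2, 13.5 and 13.1 CPM in Hay, lower in every Grain library, while at T8 it was higher by 0.33 (-0.74 ± 0.091, adjusted p = 6.04e-07). GAL, the neuropeptide galanin, had 4.17, 3.65 and 3.41 CPM in Grain and 11.4, 12.4 and 12.9 CPM in Hay, -1.71 at T16 against 0.24 at T8 (-0.90 ± 0.13, adjusted p = 1.43e-05). Against T12 and T20 alone the GAL departure changed sign, as did that of CA2. HAL, which degrades histidine, had 2.55, 3.90 and 3.32 CPM in Grain and 20.7, 21.95 and 22.1 CPM in Hay (-0.71 ± 0.12, adjusted p = 5.2e-05), and STEAP4 departed by -0.84 ± 0.2, adjusted p = 0.00342. AQP4, a water channel, departed by -0.80, GPLD1, a phospholipase, by -0.71, KIF26B, a kinesin, by -0.78, LRP2BP by -0.73, KPTN by -0.70 and CRNN, cornulin of squamous epithelium, by -0.70. Of 30 VFA, proton and bicarbonate transport genes, 3 departed upward and 4 downward. Among them CA2, carbonic anhydrase 2, had overlapping groups at T16 with 14.2, 16.97 and 14.1 CPM in Grain and 13.5, 13.02 and 15.6 CPM in Hay where T8 had 1.34 (-0.60 ± 0.099, adjusted p = 5.94e-05), and SLC16A1 departed upward by 0.23 ± 0.041, adjusted p = 0.000182.

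Cholesterol synthesis genes departed downward in 7 of 25, none upward, and 5 did so without T8 in the reference. In Hay 17 of the 25 stood higher at T16 than over the other harvests, and in Grain 11. INSIG1 departed by -0.27 ± 0.045, adjusted p = 6.92e-05. Ribosomal protein genes also departed downward, 13 of 51, with a median of -0.11. In Hay 45 of the 51 stood higher at T16 than over the other harvests, and in Grain 11, with none lower in either. The count of downward departures was 6 with DESeq2 size factors, 4 without Hay replicate 3 and 4 without T8 in the reference. RPL28 differed by 1.12 at T8 and 0.70 at T16 (-0.26 ± 0.048, adjusted p = 0.000285). Of the nuclear genes of oxidative phosphorylation 5 of 20 departed downward and none upward, with 1 downward without T8 in the reference, and in Hay 13 stood higher at T16 than over the other harvests, against 3 in Grain. SDHB, the iron-sulfur subunit of succinate dehydrogenase, had 65.7, 65.4 and 65.03 CPM in Grain and 65.7, 70.3 and 70.1 CPM in Hay, overlapping groups, where T8 had 0.33 (-0.22 ± 0.036, adjusted p = 5.08e-05).

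In the core clock loop 5 genes departed, all upward. RORA, CLOCK and BMAL1 departed by 0.26, 0.19 and 0.15, with adjusted p-values of 0.0277, 0.00274 and 0.0308 by edgeR. No activator passed without T8 in the reference. CRY1 differed by 0.67 at T16 against 0.27 at T8 (0.29 ± 0.069, adjusted p = 0.00459), and PER1 by 0.52, the largest of its 6 differences, against 0.15 (0.32 ± 0.098, adjusted p = 0.0351). BHLHE40, a repressor of CLOCK and BMAL1 activity, departed downward, from 0.32 at T8 to -0.74 at T16 (-0.53 ± 0.089, adjusted p = 8.45e-05). The other members of the core loop did not pass.

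Many departures rested on T4 and T8. With only T12 and T20 as the reference, the departures of AMER3, ARRDC4, CA2, CALD1, DUSP6, EGR1, GAL, IL1A, INHBA, INSIG1, SERPINB1, SGK1 and TXNIP changed sign. Without T8 the calls were lost for APAF1, ARRDC4, BMAL1, CALD1, CLOCK, CRNN, KIF20A, KRT5, KRT14, KRT15, LRP2BP, PER1, RORA, STEAP4, TET1 and TXNIP. Without Hay replicate 3 they were lost for APAF1, BMAL1, CALD1, CRNN, KRT14, PER1 and RORA. One Grain library decided further calls: APAF1, CRNN and PER1 were lost without Grain replicate 1, BMAL1, CALD1, PER1, RORA and TXNIP without replicate 2, and BMAL1, CALD1, CRNN, KRT14, PER1, RORA and STEAP4 without replicate 3. BMAL1 and CDRT4 were lost without Hay replicate 1, and CRNN and PER1 without Hay replicate 2.

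A turn of direction was rare. In 87 genes (0.387%) the media differed at T16 in one direction and over the other 5 harvests in the opposite one, with a departure that passed, 45 upward and 42 downward. VCAN was the largest upward turn among named genes, at 0.53 against a mean of -0.066 elsewhere. That mean takes in T4 and T8, where VCAN was lower in Grain. TCIM and PTMA, a nuclear protein of growing cells, were singled out after their values were seen. TCIM had 70.8, 75.2 and 69.6 CPM in Grain and 47.9, 55.1 and 56.7 CPM in Hay (0.56 ± 0.059, adjusted p = 2.73e-08), and PTMA had 349.7, 330.4 and 368 CPM in Grain and 261, 267 and 278 CPM in Hay (0.45 ± 0.041, adjusted p = 1.9e-09). LORICRIN had 35.1, 33.9 and 36.9 CPM in Grain and 35.1, 39.3 and 46.6 CPM in Hay, overlapping groups with a difference of -0.19 at T16 against 0.37 on average elsewhere (-0.57 ± 0.081, adjusted p = 8.22e-06), although its T16 difference no longer passed without Grain replicate 2 or Hay replicate 3. SERPINB1, an inhibitor of neutrophil proteases, had 192, 198 and 206 CPM in Grain and 277, 261 and 286 CPM in Hay, -0.47 at T16, -0.90 at T12 and 0.50 at T8 (-0.53 ± 0.038, adjusted p = 8e-12). T12 turned the same way as T16 in VCAN, TCIM, PTMA, LORICRIN and SERPINB1, and only T12 and T16 did in LORICRIN. In SERPINB1 the T20 difference was negative as well.

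Few genes stood apart from both neighbouring harvests as well as from the mean. In 9 genes (0.04%) the T16 difference departed in the same direction from the mean of the other 5 harvests, from T12 and from T20, with 4 upward and 5 downward. FBXL2, an F-box protein of a ubiquitin ligase, had 28.95, 32.2 and 30.5 CPM in Grain and 41.6, 37.5 and 38.2 CPM in Hay at T16, lower in every Grain library (-0.36). At the other harvests Grain was higher by 0.13 to 0.30. Its departure was -0.56 ± 0.091, adjusted p = 5.3e-05, and it was -0.48 from T12 and -0.60 from T20. In Grain FBXL2 stood lower at T16 than over the other harvests by log2 -0.68 (adjusted p = 1.25e-09 by edgeR), and in Hay the change of -0.12 did not pass (adjusted p = 0.261). In Grain it averaged 40.1 ± 7.94 CPM at T12, 30.5 ± 1.60 at T16 and 50.9 ± 3.64 at T20, against 36.7 ± 0.792, 39.1 ± 2.17 and 42.9 ± 1.37 in Hay.

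Of the other genes of this kind, GCC2 and FZD4 had their largest Grain excess of the 6 harvests at T16. GCC2, a golgin of the trans-Golgi, had 247, 247 and 242 CPM in Grain and 119, 120.2 and 101 CPM in Hay, 1.12 at T16 against 0.89 at T12 and 0.92 at T20 (0.27 ± 0.042, adjusted p = 2.97e-05). UPF2, of nonsense-mediated decay, had 249, 248 and 241 CPM in Grain and 108, 105 and 99.02 CPM in Hay, with differences of 0.995, 1.25 and 1.07 at T12, T16 and T20 and 1.27 at T0 (0.14 ± 0.038, adjusted p = 0.0168). FZD4, a WNT receptor, had 66.8, 66.2 and 67.7 CPM in Grain and 54.9, 54.5 and 51.5 CPM in Hay, 0.32 at T16 against 0.049 at T12 and 0.076 at T20 (0.18 ± 0.045, adjusted p = 0.00894).

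The call for UPF2 was lost without T8 in the reference and without any of 3 libraries, Grain replicates 1 and 2 and Hay replicate 3, and that for FZD4 without Hay replicate 3. The remaining 5 of the 9 fell outside the naming rule and were singled out after their values were seen. CYP2A6, a cytochrome P450, had 0 counts in all 3 Grain T16 libraries and 36 to 57 in Hay, at least 14.8-fold lower at a floor of 3 counts per library, while the other Grain harvests held from 3 to 33 counts. LOC114116945 departed upward and LOC101112819, LOC132659474 and LOC132657633 downward, all on few reads. The 6 T16 libraries held 35 to 83 counts of LOC101112819, 6 to 16 of LOC114116945, 0 to 10 of LOC132659474 and 0 to 36 of LOC132657633. With T12 and T20 alone as the reference, FBXL2, CYP2A6 and LOC114116945 were the 3 genes that passed.

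**Figure D5:**
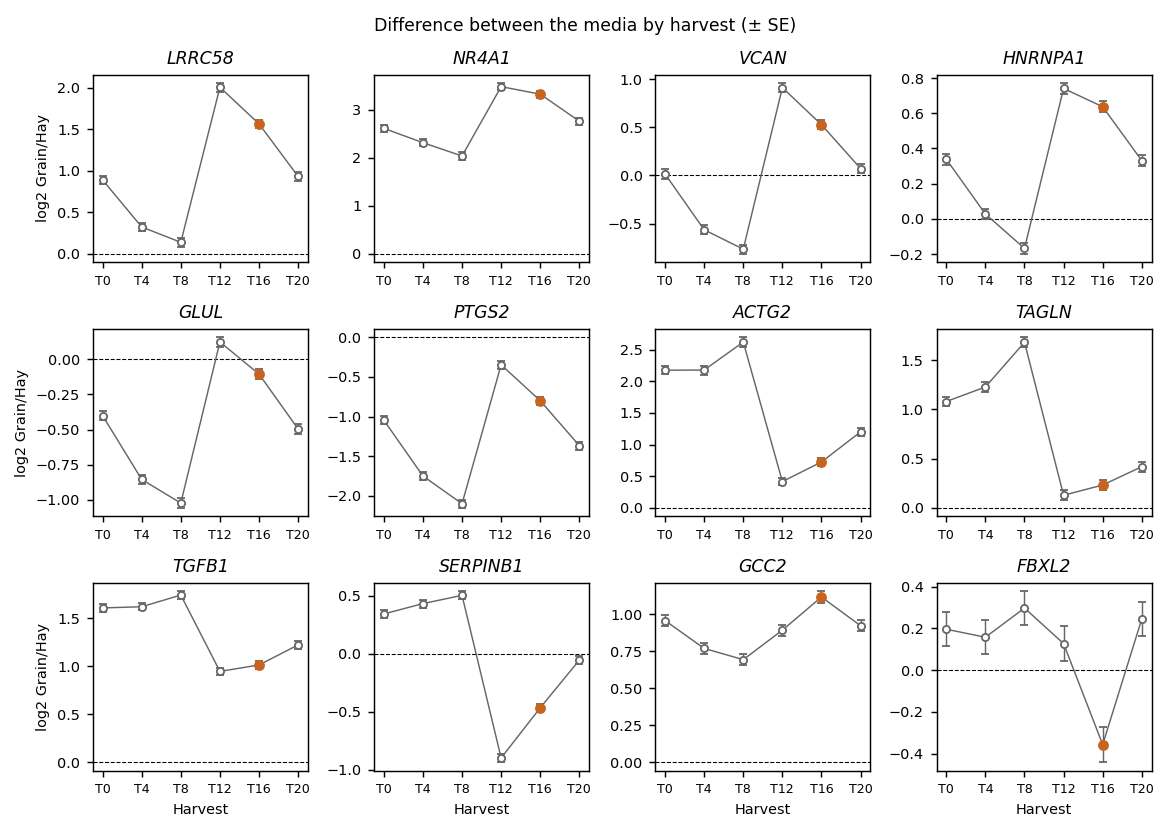
Difference between Grain and Hay (log2 ± SE) at each of the 6 harvests for 12 genes, with T16 as a filled point and a dashed line at no difference. In every panel except GCC2 and FBXL2 the T16 value lies between those of T12 and T20, and FBXL2 is below 0 at T16 only.

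The library kit, per the labels, is one that keeps no strand, so where exons of different genes overlap their reads may not be told apart. Of the 169 genes named, 50 overlap another gene of the RefSeq sheep annotation, counted by whole gene spans and not by exons. They are ACTG2, ANXA1, ATF3, ATF4, BDH1, BHLHE40, BHLHE41, BTRC, C2H2orf88, CCNE2, CIART, COL1A1, CRY1, CSNK1D, DDIT3, EREG, ERN1, FBXL2, FDPS, GPLD1, H1-6, HDAC9, HK2, HNRNPA1, HSPA1A, HSPA8, IPO7, KIF20A, LOC132657633, LRP2BP, MSTN, NAMPT, NPAS2, NR1D1, NR4A2, ODC1, PRG4, PRR7, PTGS2, RAD21L1, RPL10, SLC4A7, SLC6A20, TEF, TET1, TGFB1, TKT, TNC, TXNIP and UPF2. HSPA1A, HSPA8, HNRNPA1, PTMA, RPL10, RPL28 and the actins ACTA2 and ACTG2 have close copies in the genome, and how reads with several matches were counted is not given in the sources used here.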

How the data were processed

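The authors deposited 1 table of gene counts for 36 libraries, and per the submitters' processing notes the reads went through HISAT2 (2.2.1), SAMtools (1.20) and StringTie (2.1.5). No source used here gives the genome build or the assignment of reads. Per the labels, libraries were made from RNA with a kit that does not keep strand. Groups were taken from the labels. The counts were fitted with edgeR 4.0.16 (R 4.3.3, limma 3.58.1) in a model of 12 group means over all 36 libraries, so that the spread was shared, after filterByExpr (minimum count 10, total 15) and TMM scaling, with quasi-likelihood tests and Benjamini-Hochberg adjustment at 0.05. The procedure was also run on simulated counts in which a small set of genes changed in Grain T16 alone. Unlike the real counts, these had no other difference between media or harvests. Alternatives were DESeq2 1.42.0, its size factors, no low-count filter, the T16 libraries alone, a replicate block, a minimum fold of 1.5, each T16 library left out, and other reference harvests.

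Named genes had at least 5 CPM in a T16 group and a symbol, and were the largest or most precise changes at T16 or against the other harvests, genes apart from all references, up to 3 members a direction in each of 44 gene lists, and all clock genes. The members and lists were chosen with earlier results of these data known. The largest and most precise changes at T16 were drawn only from genes with all 3 Grain libraries on one side of all 3 Hay libraries. Differences at single harvests and the departures from T0, T4 and T8 were added after the data were seen. Gene names are those of the table, and 2778 identifiers had no symbol. Sequences and coordinates are not shown. A few genes that the rule would name are not reported here.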

Additional observations from a re-analysis of the deposited data

Results flagged for a closer look

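For 2077 genes the difference between Grain and Hay at T16 departed from its mean at the other 5 harvests by edgeR's test of the difference of differences, and each departure given in the report is listed here as log2, with the group it belongs to. The factors of the NR4A family and other early response genes departed by these values: NR4A1 (0.68), NR4A2 (0.44), NR4A3 (0.63), EGR1 (-0.44), KLF2 (-0.57), DUSP2 (-0.999), DUSP6 (-0.47) and ID1 (-0.58). Among glucocorticoid receptor targets and stress genes they were GLUL (0.43), SGK1 (0.37), TSC22D3 (0.44), KLF9 (0.34), CEBPD (-0.65), HSPA1A (0.48), HSPA8 (0.40), TXNIP (0.13), ARRDC4 (0.21), APAF1 (0.29), CDKN1A (0.36) and BTG2 (0.36). Clock genes gave RORA (0.26), CLOCK (0.19), BMAL1 (0.15), CRY1 (0.29), PER1 (0.32) and BHLHE40 (-0.53).

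Contractile genes gave ACTG2 (-0.99), TAGLN (-0.67), TPM2 (-0.62), ACTA2 (-0.26) and CALD1 (0.14), and keratins and cornified proteins gave KRT5 (0.43), KRT14 (0.22), KRT15 (0.45), KRTAP1-1 (0.96), LORICRIN (-0.57) and CRNN (-0.70). Inflammatory and matrix genes gave PTGS2 (0.52), CCL20 (0.82), IL1A (0.40), CXCL8 (0.40), ICAM1 (-0.38), SERPINB1 (-0.53), VCAN (0.59), MMP1 (-0.68), TGFB1 (-0.41) and INHBA (0.48). Among genes of transport and metabolism the values were ATP12A (-0.74), CA2 (-0.60), SLC16A1 (0.23), SLC6A20 (0.78), AQP4 (-0.80), HAL (-0.71), GPLD1 (-0.71), STEAP4 (-0.84), INSIG1 (-0.27), SDHB (-0.22) and RPL28 (-0.26).

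The remaining upward departures were HDAC9 (1.59), AMER3 (1.32), CDRT4 (0.93), MSTN (0.90), TET1 (0.83), H1-6 (0.73), MEDAG (0.71), LRRC58 (0.71), KIF20A (0.70), HNRNPA1 (0.38), TCIM (0.56), PTMA (0.45), GCC2 (0.27), UPF2 (0.14) and FZD4 (0.18). The remaining downward ones were GAL (-0.90), KIF26B (-0.78), LRP2BP (-0.73), KPTN (-0.70), HNRNPL (-0.47) and FBXL2 (-0.56).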

How the results depend on the processing

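The T16 difference kept most of its calls. It was called in 14108 genes. Of these, DESeq2 also called 13875, the 6 T16 libraries alone 13045, and runs with 1 T16 library left out 13011 to 13141, each in the same direction. In total, the 6 T16 libraries alone called 13225 genes and the runs with 1 library left out 13364 to 13519. Against a minimum fold of 1.5 the call held in 5357 (2171 higher, 3186 lower). Of the 169 named genes, none that passed at T16 in the main or the alternative run changed its direction there. Changes of direction in genes that passed in neither run were not counted. With DESeq2 size factors SDHB also passed at T16, BMAL2 did not pass by DESeq2, and CIART did not pass without the low-count filter.

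The departure count of 2077 depended on the reference. It was 3 (1 upward, 2 downward) against T12 and T20, 1116 (599, 517) without T4, 792 (416, 376) without T8 and 4019 (1825, 2194) without T12. It ranged from 1381 to 1915 when 1 T16 library was left out (upward 678 to 996, downward 703 to 919), the lowest without Hay replicate 3, and DESeq2 gave 1567 upward. The departure from T12 was called in 408 genes, in 660 by DESeq2 and in 281 to 382 with a library left out, and that from T20 in 733 and in 535 to 715. Grain at T16 against its other harvests gave 4539 genes, 14 against T12 and T20, 2856 without T4, 2094 without T8, 7137 without T12 and 3177 to 4637 with a library left out. Hay gave 2748, 6, 1813, 1557, 4773 and 1438 to 2806 in the same order, the lowest again without Hay replicate 3. In a group with a library left out, 2 libraries remain and the spread is pooled over all groups. The difference in mitochondrial mRNA share ranged from -2.13 to -2.08 percentage points.

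With T12 and T20 as the reference, departures changed sign for AMER3 (-0.16), ARRDC4 (-0.020), CA2 (0.041), CALD1 (-0.027), DUSP6 (0.055), EGR1 (0.13), GAL (0.016), IL1A (-0.076), INHBA (-0.013), INSIG1 (0.070), SERPINB1 (0.011), SGK1 (-0.015) and TXNIP (-0.047). The cause was not tested beyond the choice of reference. HSPA5's departure passed with the block, with DESeq2 and with its size factors.

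Replicate numbers are shared across groups in the labels, but no pairing showed in the values. At T16 the deviations of Grain and Hay libraries with the same number correlated at 0.011, 0.021 and -0.001. Such correlations cannot tell whether libraries of the same number shared a culture or donor. With the replicate block the T16 difference was called in 14036 genes and the departure in 2089, and with the T16 libraries alone and the block the difference in 12753.

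Depth ran from 57700308 to 61535862 counts a library, and with 3 libraries a group a permutation test of a single value cannot go below 0.1.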
